A study of Mus musculus with 2 samples.

Results

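Among the cultured bone marrow cells of this series, the Csf3r-positive Ly6g-negative cells were the barcodes with at least 1 UMI of Csf3r, the receptor for the granulocyte growth factor G-CSF, and no UMI of Ly6g, the classic surface marker of mouse neutrophils. A UMI (unique molecular identifier) counts 1 captured RNA molecule. Cells also had to hold fewer than 2 UMIs of Car4 and of Mmp13. Per 10,000 UMIs of the cell, they had to hold fewer than 20 of Ltf and Ngp together, 30 of Ccl3 and Ccl4, 30 of the class II genes H2-Aa, H2-Ab1 and H2-Eb1, and 20 of Stfa1, Stfa2 and Stfa3. These criteria were applied to barcodes with at least 1000 UMIs and at most 10% of UMIs from mitochondrial genes, and 1359 of 21035 such barcodes met them and are named members in the plots. The cells were thus chosen by their measured UMIs of these genes, whose levels in them are a description of the choice.

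Bone marrow from female C57BL/6 mice, 10 weeks old, was grown in GM-CSF and IL-6 (50 ng/mL of each) for 4 days, a culture that yields myeloid-derived suppressor cells (MDSC), a mixture of immature monocytic and polymorphonuclear (PMN) cells. One culture received 1.5 µM dabrafenib (DAB), a BRAF kinase inhibitor used in melanoma, and the other received its solvent, DMSO. The number of mice behind each culture was not given in the sources used here. Each condition was 1 droplet library, so no difference between DAB and DMSO has a replicate check, no test between them was possible, and every interval given here covers counting error only.

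Neutrophils are made in the marrow from promyelocytes, which fill primary granules with proteases such as elastase and myeloperoxidase. Myelocytes then make secondary granules with lactoferrin, and the late stages make gelatinase (Mmp9) and the receptors for G-CSF, formyl peptides and chemokines. Mature neutrophils no longer divide and hold much less RNA than their precursors or than macrophages, and in tumours neutrophils with suppressive activity are counted among the PMN-MDSC.

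The cells numbered 627 of 9621 barcodes in DMSO (6.52%, exact Clopper-Pearson 95% interval 6.03 to 7.03%) and 732 of 11414 in DAB (6.41%, 5.97 to 6.88%). The log2 ratio of the DAB share to the DMSO share was -0.02 (-0.18 to 0.13). It depended on how the criteria were read: with the criteria applied after each barcode was thinned to 1500 UMIs the shares were 5.23% in DMSO and 4.19% in DAB (-0.32, -0.51 to -0.14), and with at least 2 Csf3r UMIs they were 4.15% and 2.94% (-0.49, -0.71 to -0.28). These intervals cover counting error only. In DMSO, 2919 barcodes held a Csf3r UMI, 1887 of them held no Ly6g, 816 also passed on Car4, 813 on Mmp13, 683 on Ltf and Ngp, 652 on Ccl3 and Ccl4, 639 on class II and 627 on the stefins. In DAB the same steps left 2761, 2242, 996, 970, 907, 835, 822 and 732. After the Csf3r step, the largest loss in both libraries came at the Car4 step. The libraries shared 144 barcode sequences among those past the filters, and 1 of these sequences was a member in both. A doublet score marked 741 barcodes in DMSO (7.70%) and 1042 in DAB (9.13%), and 20 (3.19%) and 27 (3.69%) of the Csf3r-positive Ly6g-negative cells were among them. They were kept, and the counts without them are given with the processing. The score does not mark every doublet, so unmarked ones may remain in those counts too.

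The median depth of the cells was below that of all barcodes, and the limits on Ly6g, Car4 and Mmp13, set in UMIs per barcode, favour shallow barcodes. All barcodes past the filters held 1.07e+08 UMIs in DMSO, with a median of 8337 per barcode, and 1.65e+08 in DAB, with a median of 10587. The Csf3r-positive Ly6g-negative cells had a median of 3062 UMIs and 1407 genes in DMSO and 3802 UMIs and 1691 genes in DAB, with a range of 1000 to 39831 and 1044 to 79086 UMIs. Their median mitochondrial share was 0.297% in DMSO and 0.370% in DAB. A deep minority weighed on every summed value: the 57 DMSO cells with at least 10,000 UMIs were 9.09% of the cells and held 35.2% of their UMIs, and the 137 such DAB cells were 18.7% of the cells and held 59.6%. For this reason summed levels, in UMIs of a gene per 1000000 UMIs of the cells (CPM), are given for all the cells and, for the main genes and lists, also for the 570 DMSO and 595 DAB cells under 10,000 UMIs, called the shallow cells, a division made after the data were seen.

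Depth divided the cells by their genes. Cells with 1000 to under 3000 UMIs (304 in DMSO, 250 in DAB) and with 3000 to under 10,000 UMIs (266 and 345) carried genes of late neutrophils, and the deep cells carried more RNA of promyelocyte and of monocyte genes. Mmp9, the gelatinase of late granules, stood at 516, 547 and 62.9 CPM from the shallowest to the deepest DMSO cells and at 1748, 1415 and 220 CPM in DAB. Il1rn, which encodes the IL-1 receptor antagonist, stood at 992, 455 and 88.7 CPM in DMSO and at 2069, 1053 and 192 CPM in DAB. Elane, the gene of neutrophil elastase, ran the other way, at 4.73, 8.48 and 1137 CPM in DMSO and 16.5, 32.3 and 619 CPM in DAB. Prtn3, for proteinase 3 of the same granules, stood at 23.6, 69.4 and 1026 CPM in DMSO and at 11, 43.3 and 933 CPM in DAB. The interferon-inducible Ifitm1 also went with depth, from 590 to 6881 CPM in DMSO and from 437 to 8083 CPM in DAB. At least 3 UMIs of the 6 progenitor genes were found in 30 deep DMSO cells (52.6%) and 64 deep DAB cells (46.7%), against 7 (1.23%) and 16 (2.69%) of the cells under 10,000 UMIs. Elane had a UMI in 28.1% of the deep DMSO cells and 29.9% of the deep DAB cells. The summed monocyte and macrophage markers were also highest in the deep cells, at 421, 714 and 2612 CPM in DMSO and 285, 575 and 1116 CPM in DAB, beside 2528 and 2340 CPM of the progenitor markers in the deep cells. The macrophage gene Mmp12 had a UMI in 45.6% and 31.4% of them. The shares of cells with UMIs given here were not thinned, and deeper cells reach a set number of UMIs more readily. The part of depth in these shares was not tested. The plot of levels by depth shows the opposite courses of late and early neutrophil genes. Csf3r itself stood at 1242 CPM in the shallowest and 83.0 CPM in the deepest DMSO cells and at 869 and 62.1 CPM in DAB, but the criterion of 1 UMI fixes part of that.

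**Figure D1:**
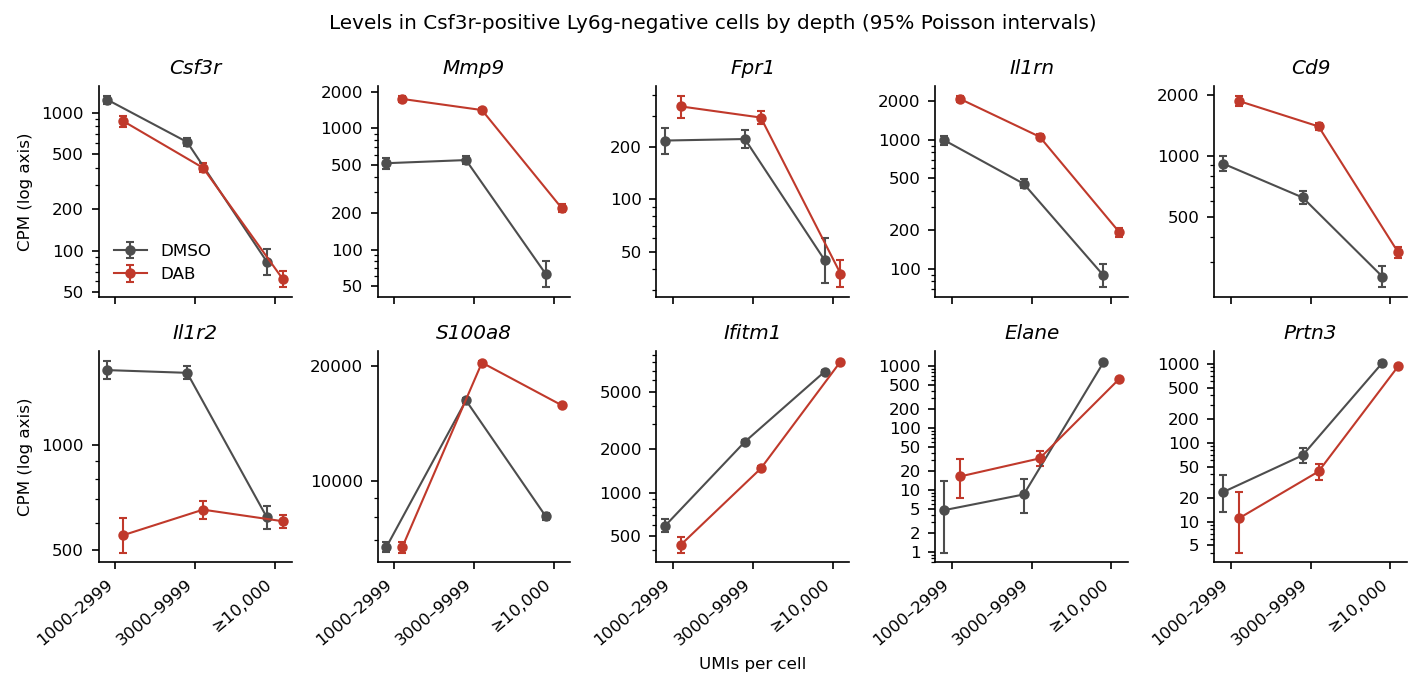
Summed level (CPM, log axis) of 10 genes in Csf3r-positive Ly6g-negative cells of 1000 to under 3000, 3000 to under 10,000 and at least 10,000 UMIs, DMSO and DAB in separate colours, with exact Poisson 95% intervals. Mmp9, Fpr1, Il1rn and Cd9 are lowest in the deepest cells of both libraries, where Elane and Prtn3 are highest.

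The name mature neutrophil was checked against markers. UMIs of 12 neutrophil genes outnumbered those of monocyte, macrophage and dendritic cell markers in 592 DMSO cells (94.4%) and 701 DAB cells (95.8%), against 30.1% and 29.1% of B cell-like barcodes, which should lack these genes. Without S100a8 and S100a9, which are abundant in the background, the shares were 93.2% and 92.6% in the shallow cells, 45.6% and 64.2% in the deep cells and 7.19% and 13.2% in B cell-like barcodes. Of the 4 marker genes other than Csf3r, which chose the cells, at least 2 of Mmp9, Fpr1, Il1rn and Cd9 were found in 78.0% of the DMSO cells and 88.8% of the DAB cells. After every cell was thinned to 1500 UMIs, the share was 57.9% (DMSO) and 85.0% (DAB) in the shallow cells, 17.5% and 26.3% in the deep cells and 2.72% and 6.60% in B cell-like barcodes. Since many of the deep cells held few of these genes, the cells are called here by the criteria that chose them.

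Markers of other cell types were present to different extents, and most were not tested for their part in the results below. Cells with at least 5 UMIs of monocyte and dendritic cell markers per 10,000 are called rich in these markers, or monocyte-rich. A shallow cell can reach this limit with fewer than 3 such UMIs. With all cells at the limit left out, 329 of the 377 genes counted below as higher in DAB and 144 of the 190 lower ones were still counted. All 377 higher genes and 179 of the 190 lower ones kept their sign. Further genes joined the higher ones under this setting, and that count is given with the processing. The 17 monocyte and macrophage markers summed to 1319 CPM in DMSO and 870 CPM in DAB, and to 618 and 506 CPM in the cells under 10,000 UMIs. Mmp12, a macrophage elastase, gave the most of these UMIs (1067 and 956), while C1qa had 4 and 0 UMIs. At least 5 monocyte marker UMIs per 10,000 were found in 40.03% of the DMSO cells and 32.9% of the DAB cells. At least 3 such UMIs, whatever the depth, were found in 26.5% and 30.6%. Of 9 markers of this kind that reached 20 CPM in a library, 4 were lower in DAB by at least 2-fold (Ly86, Ccr2, Mgl2 and Mmp12) and none higher, though under 10,000 UMIs Mgl2 gave 0.66 (0.11 to 1.23). Progenitor markers summed to 944 CPM in DMSO and 1437 CPM in DAB, and 6 cycling markers to 381 and 595 CPM. The progenitor sum was 83.3 and 102 CPM in the shallow cells but 2528 and 2340 CPM in the deep cells. The cycling sum was 806 and 934 CPM in the deep cells but 150 and 94.4 CPM in the shallow cells. Intermediate granulocyte markers, with Ly6g at 0 by choice, summed to 4244 and 2681 CPM, most of it Chil3. Dendritic cell markers summed to 29.2 and 26.8 CPM, with Cd209a, Xcr1 and Siglech at 0 in both libraries. Basophil and mast cell markers summed to 29.9 and 65.2 CPM, eosinophil markers to 24.8 and 56.5 CPM, and B cell markers to 13.8 and 12.8 CPM. Of the eosinophil UMIs in DAB, Prg2 gave 205, and 86.8% of them lay in 1 cell. T and NK cell markers summed to 1.34 and 1.95 CPM, with Cd3e, Cd3g, Ncr1 and Gzma at 0, and erythroid markers to 0.671 and 0.709 CPM. Signs of RNA quality also differed between the libraries: Gm42418, a locus that overlaps a ribosomal RNA repeat, took 32335 CPM of the cells in DMSO and 17314 CPM in DAB, and the nuclear RNA Malat1 took 8337 and 4745 CPM. Both were lower in DAB in all other barcodes too, with log2 ratios of -0.69 for Gm42418 and -0.48 for Malat1.

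The cells just inside and just outside the criteria differed in steps of unlike size. In DMSO, the 228 cells with exactly 1 Csf3r UMI held 267 CPM of Mmp9 and 10716 CPM of S100a8, and the 1339 cells that met all other criteria with no Csf3r UMI held 34.2 and 2960 CPM. In DAB the 396 cells with 1 Csf3r UMI held 595 CPM of Mmp9 and 16468 CPM of S100a8, and the 2563 cells with none held 131 and 5745 CPM. The cells without Csf3r were also deeper, with medians of 8352 and 12146 UMIs. Cells with 1 Ly6g UMI, just outside, numbered 30 in DMSO and 39 in DAB and held 28414 and 42623 CPM of S100a8, the small calcium-binding protein that neutrophils make in bulk. At the Car4 limit the step was small: cells with 1 Car4 UMI (129 and 135) held 391 and 1054 CPM of Mmp9, and cells with 2 (98 and 85) held 409 and 1159 CPM.

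Within the cells under 10,000 UMIs, other neutrophil genes varied with the number of Csf3r UMIs. Cells with 1, 2, 3 to 4, and 5 or more Csf3r UMIs numbered 191, 130, 155 and 94 in DMSO and 300, 153, 106 and 36 in DAB. Mmp9 stood at 508, 523, 647 and 459 CPM over these strata in DMSO and at 1215, 1585, 1936 and 2412 CPM in DAB. Cxcr2, the receptor for the chemokines that draw neutrophils out of marrow, stood at 252, 260, 382 and 366 CPM in DMSO and at 228, 296, 331 and 546 CPM in DAB. Monocyte markers summed to 818, 658, 434 and 431 CPM in DMSO and to 555, 409, 559 and 293 CPM in DAB, lowest in the top stratum of each. Cycling markers were highest with 1 Csf3r UMI, at 285 CPM against 50.7 CPM with 5 or more in DMSO and 124 against 19.99 CPM in DAB, the last from 3 UMIs. In every stratum Mmp9 was higher and Il1r2 lower in DAB than in DMSO.

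S100a8 and S100a9 varied widely among the cells. The 2 genes together took 1.08 UMIs per 10,000 in the DMSO cell at the 10th percentile, 26.0 in the median cell and 648 at the 90th percentile, and 4.34, 61.7 and 907 in DAB. Both genes were also found in many B cell-like barcodes, so the values of the lowest cells may be read as background. Among cells under 10,000 UMIs, the variance of counts over that of Poisson counting was 122 for S100a9, 101 for S100a8 and 91.0 for Fth1 (ferritin heavy chain) in DMSO, and 189, 141 and 136 in DAB. Gm42418 headed the DMSO list with 138, followed further down by Retnlg (45.9), Chil3 (39.7), Gm26917, Lars2, Mt1 and Cmss1. In DAB the other members of the first 10 were Gm26917 (110), Cdk8, Retnlg (49.8), Gm42418, Ccl6, Retnla and mt-Co1. Retnlg, a resistin-like neutrophil gene, sat in few cells: 1 cell held 40.3% of its UMIs in DMSO and 28.9% in DAB.

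The cells were set beside 3 other granulocyte classes of the same libraries: Ly6g-positive cells that passed every other criterion (88 in DMSO, 75 in DAB), secondary granule cells with at least 20 UMIs of Ltf and Ngp per 10,000 (1709 and 727), and chemokine cells with at least 30 UMIs of Ccl3 and Ccl4 and under 20 of Ltf and Ngp per 10,000 (239 and 698). The criteria separate these classes, so the differences are a description. A gene was counted when it reached 20 CPM and differed by at least 2-fold in the same direction in both libraries. Against the Ly6g-positive cells, 33 of 5566 genes were higher (0.593%) and 28 lower (0.503%), and with cells under 10,000 UMIs alone 99 of 5652 (1.75%) and 59 (1.04%). Against the secondary granule cells, 259 of 5537 genes were higher (4.68%) and 82 lower (1.48%), and under 10,000 UMIs 1035 of 5590 (18.5%) and 140 (2.5%). Against the chemokine cells, 132 of 5702 genes were higher (2.31%) and 97 lower (1.7%), and under 10,000 UMIs 77 of 5749 (1.34%) and 84 (1.46%). The classes differ in size, which limits how many genes can be counted, so the counts give no order of likeness.

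With cells under 10,000 UMIs on both sides, the missing Ly6g went with less of several other neutrophil genes. Cd177, a surface partner of proteinase 3, stood at 35.7 CPM in the DMSO cells against 543 CPM in the Ly6g-positive cells (log2 ratio -3.93) and at 59.7 against 768 CPM in DAB (-3.69). Retnlg stood at 130 against 2458 CPM in DMSO and at 484 against 4824 CPM in DAB. Lcn2, the iron-scavenging lipocalin of secondary granules, stood at 811 against 5870 CPM in DMSO and 816 against 3584 CPM in DAB. S100a9 stood at 10596 against 72937 CPM in DMSO and 15046 against 65518 CPM in DAB. Ceacam10, Retnla, Cystm1 and Ly6c2 made up the other genes furthest below. The genes furthest above were Trem2, a lipid-binding receptor of macrophages (135 against 20.2 CPM in DMSO, 117 against 33.4 CPM in DAB), Mpeg1, the pore-forming perforin-2 (60.6 against 22.7 CPM, 206 against 59.4 CPM), Lsm2, F7, Foxn3, Gstt3, Polr2i and Chchd3. The late neutrophil genes divided: the log2 ratio to the Ly6g-positive cells was -0.98 and -0.16 for Mmp9, 0.01 and 0.64 for Il1rn, 0.14 and 0.51 for Cd9 and -0.75 in both libraries for Cxcr2.

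The secondary granule cells differed most in the cathelicidin gene Camp, at 20.2 CPM in the Csf3r-positive Ly6g-negative cells against 4471 CPM there in DMSO and 10.5 against 1159 CPM in DAB. Cd177, Ceacam10, Itgb2l, Ly6c2, Retnlg, Ifitm6 and Lcn2 were also among the furthest below. Above them stood Gstt1, a glutathione transferase (77.1 against 3.10 CPM in DMSO, 54.9 against 1.05 CPM in DAB), Atp6v0d2, a subunit of the proton pump (log2 ratios 4.56 and 5.24), and Clec4n, the fungal receptor dectin-2 (568 against 39.4 CPM, 992 against 59.5 CPM), with Gstt3, Flrt2, Trem2, Mpeg1 and Ddt. Against the chemokine cells, the genes furthest below were led by the basophil protease genes Prss34 (1.55 against 805 CPM in DMSO, 3.51 against 276 CPM in DAB) and Mcpt8. The others were Gata2, Cyp11a1, Mmp12, Wfdc17, Snx24 and Cystm1. The furthest above were Hp, for the haemoglobin-binding haptoglobin (357 against 76.9 CPM in DMSO, 101 against 15.4 CPM in DAB), Nos1ap, Tgfbi, Sirpb1b, Ipcef1, Abcd2, Dgkg and Gstt3.

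**Figure D2:**
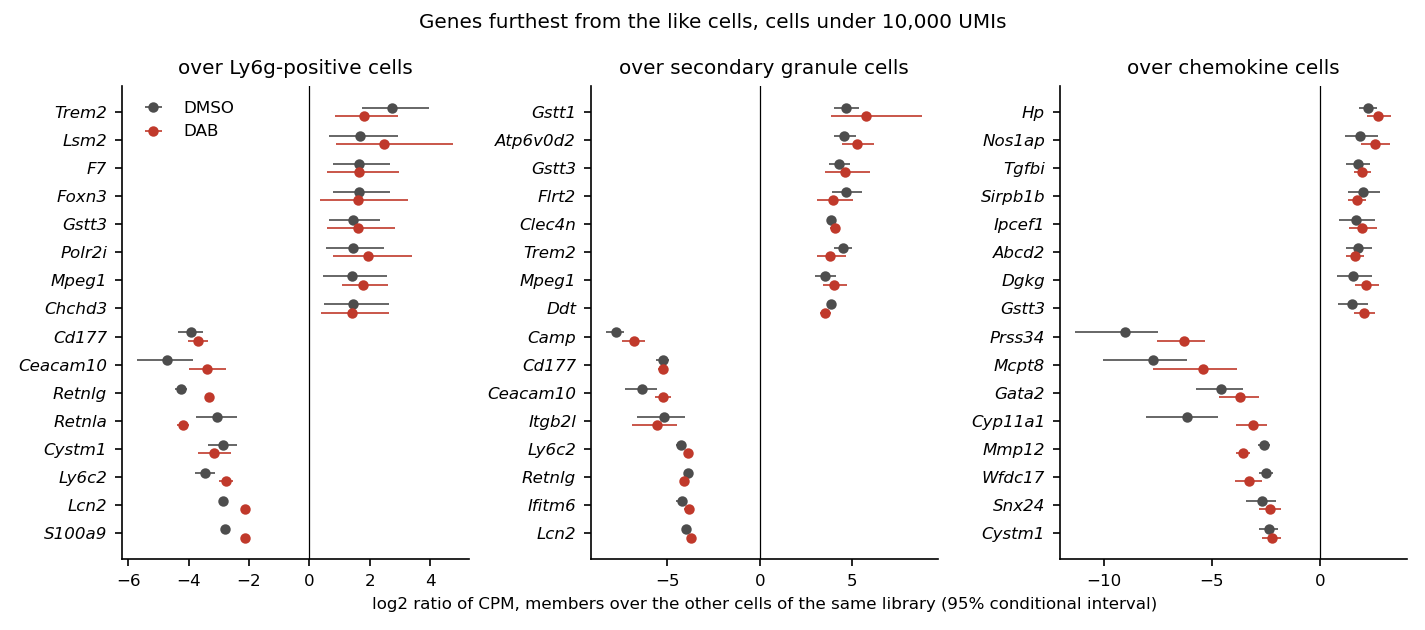
Log2 ratio of the level in Csf3r-positive Ly6g-negative cells (members) to that in Ly6g-positive, secondary granule or chemokine cells of the same library, for the genes furthest from each, cells under 10,000 UMIs, with exact conditional 95% intervals. In both libraries Cd177, Retnlg, Lcn2 and S100a9 lie below 0 against the Ly6g-positive cells and Camp against the secondary granule cells, and Trem2 and Mpeg1 lie above 0 against both.

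DAB and DMSO were then compared gene by gene within the cells, the study's question being what the BRAF inhibitor does to MDSC. With 1 library each, the drug and the library cannot be told apart. A gene was counted when it reached 20 CPM in a library and the log2 ratio of DAB to DMSO was at least 1 in size with a 95% interval, from an exact conditional test of 2 counts, that left out 0. Of 6410 genes at 20 CPM, 377 were higher in DAB (5.88%) and 190 lower (2.96%). These counts include genes of the criteria, such as Stfa1, Stfa2 and Stfa3 among the higher and Csf3r among the lower. Among the cells under 10,000 UMIs, 337 of 6345 were higher (5.31%) and 102 lower (1.61%). The 2 sets shared 168 higher genes, 44.6% of the first and 49.9% of the second, and 66 lower genes (34.7% and 64.7%). The median log2 ratio of all genes was 0.01 in the first and 0.12 in the second, and each value below is to be read against these. Of the 377 higher genes, 67 stood as high or higher in the B cell-like barcodes of DAB, and of the 190 lower genes 31 did so in those of DMSO. B cells can express some of these genes themselves. In summed RNA, a lower level in 1 library can come from fewer cells that carry a gene or from less RNA per cell, and the number of cells with a UMI is given where it was informative.

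**Figure D3:**
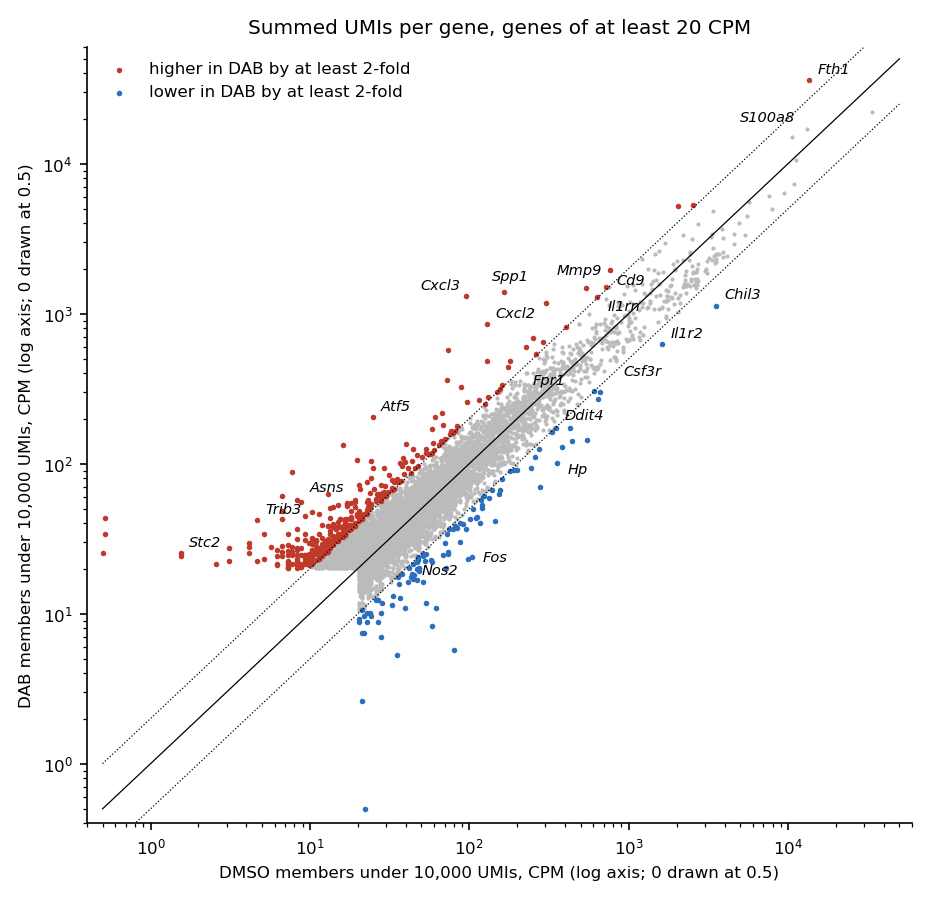
Level of each gene in DMSO (horizontal) and DAB (vertical) in Csf3r-positive Ly6g-negative cells under 10,000 UMIs (CPM, log axes), for genes at 20 CPM or more in a library, with those counted as higher or lower coloured. Cxcl3, Spp1 and Mmp9 lie above the diagonal, and Nos2, Hp and Il1r2 below it.

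The marker genes of the cells differed in both directions. Mmp9 (ENSMUSG00000017737, chr2:164940780-164955850, plus strand, mm10) stood at 370 and 734 CPM in DMSO and DAB (log2 ratio 0.99, 0.89 to 1.09) and at 537 and 1495 CPM under 10,000 UMIs (1.48, 1.38 to 1.58). Il1rn stood at 440 and 637 CPM (0.53, 0.44 to 0.63) and at 631 and 1296 CPM under 10,000 UMIs (1.04, 0.94 to 1.14). Cd9, a membrane tetraspanin, stood at 556 and 809 CPM (0.54, 0.46 to 0.62) and at 720 and 1512 CPM under 10,000 UMIs (1.07, 0.98 to 1.16). These 3 genes were higher in DAB in all the cells, short of 2-fold, and in the shallow cells, where they reached it. In the deep cells Mmp9 stood at 62.9 and 220 CPM, Il1rn at 88.7 and 192 CPM and Cd9 at 254 and 334 CPM. Fpr1, the formyl peptide receptor, gave 159 and 146 CPM (-0.12, -0.29 to 0.04), an interval that holds 0, but 221 and 306 CPM under 10,000 UMIs (0.47, 0.30 to 0.65). Csf3r (ENSMUSG00000028859, chr4:126024550-126044440, plus strand) stood at 560 and 243 CPM (-1.20, -1.31 to -1.10) and at 820 and 511 CPM under 10,000 UMIs (-0.68, -0.79 to -0.57). Csf3r chose the cells, so its level here is a description, and beyond them, in all other barcodes, its log2 ratio was -1.09.

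Il1r2, the decoy receptor that binds IL-1 without signalling, differed in the opposite sense to its partner Il1rn. Il1r2 (ENSMUSG00000026073, chr1:40074079-40125231, plus strand) stood at 1271 CPM in DMSO and 615 CPM in DAB (-1.05, -1.11 to -0.98), and at 1623 and 630 CPM under 10,000 UMIs (-1.37, -1.46 to -1.28). In all other barcodes it stood at 662 and 736 CPM (0.15), beside 0.85 for Mmp9, 0.42 for Il1rn, 0.18 for Cd9 and -0.04 for Fpr1. Whether the ratios differ between these cells and the others was not tested. The deep cells held nearly the same amount of Il1r2 in both libraries, 622 CPM in DMSO and 606 CPM in DAB, so at like depth the lower level lay in the shallow cells. The level over all the cells also carries the larger part of UMIs from deep cells in DAB, 59.6% against 35.2% in DMSO.

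Shares of cells with a UMI gave the same order once depth was made equal. Thinning to 1500 UMIs excluded 50 shallower cells in DMSO and 28 in DAB. After it, Mmp9 was found in 44.8% (40.5 to 49.2%) of the DMSO cells under 10,000 UMIs and 70.9% (67.0 to 74.6%) of the DAB cells. The background in B cell-like barcodes (147 and 212 after thinning, with median depths of 4324 and 5773 UMIs before it, against 2878 and 3331 in the shallow cells) was 2.7% and 5.2%. Cd9 was found in 55.2% and 82.5% of the shallow cells (9.5% and 18.4% of B cell-like barcodes), Il1rn in 50.0% and 70.4% (6.1% and 5.7%), and Fpr1 in 24.0% and 32.8% (0% and 1.4%). Il1r2 was found in 75.2% (71.2 to 78.8%) and 38.6% (34.6 to 42.8%), with 12.2% and 11.8% in B cell-like barcodes. Unthinned, in all the cells, the shares were 59.0% and 76.2% for Mmp9, 78.0% and 90.4% for Cd9, 64.3% and 81.0% for Il1rn, 36.7% and 45.2% for Fpr1, and 84.1% and 57.4% for Il1r2. All of these lay above the background.

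**Figure D4:**
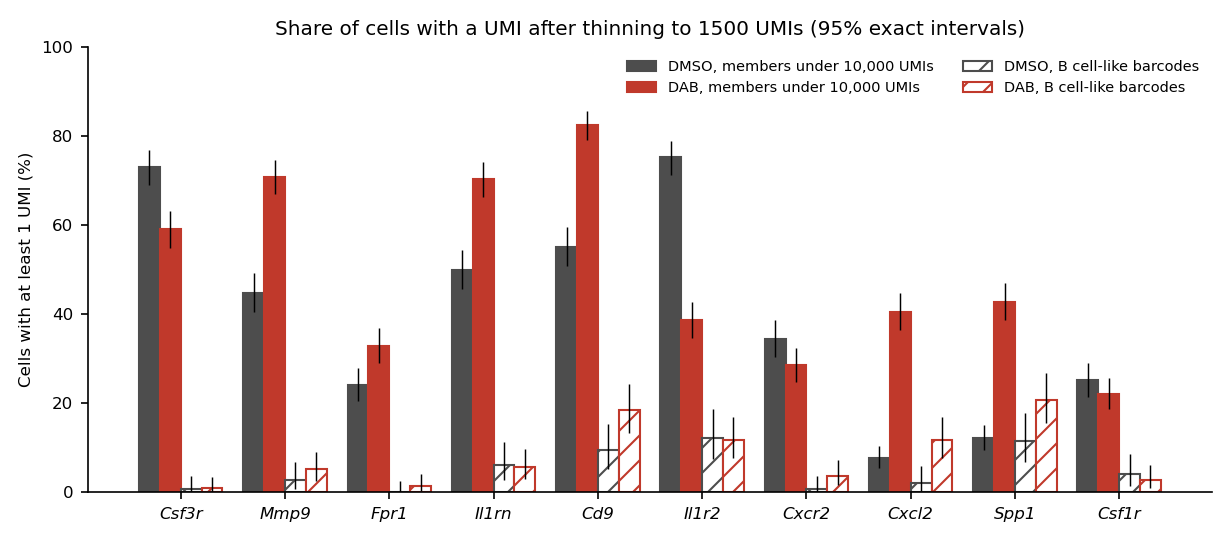
Share of Csf3r-positive Ly6g-negative cells under 10,000 UMIs with at least 1 UMI of each gene after thinning to 1500 UMIs (percent, with exact 95% binomial intervals), beside B cell-like barcodes, by library. Mmp9, Cd9, Il1rn, Cxcl2 and Spp1 are found in a larger share of DAB cells, and Il1r2 in a larger share of DMSO cells.

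Of 30 mature neutrophil genes at 20 CPM, 5 were higher in DAB and 1, Il1r2, lower, with a median log2 ratio of 0.24 (7 higher, 1 lower and 0.45 in 31 genes under 10,000 UMIs). The higher ones were Retnlg (104 to 367 CPM, 1.82), the medium-chain fatty acid receptor Gpr84 (9.06 to 31.9 CPM, 1.82), Hdc, which makes histamine (10.7 to 35.4 CPM, 1.72), Padi4, the arginine deiminase needed for extracellular traps (68.1 to 148 CPM, 1.12), and G0s2 (41.9 to 84.5 CPM, 1.01). Retnlg had UMIs in 40 DMSO and 120 DAB cells, and B cell-like barcodes held 125 and 1033 CPM of it, above the levels in all the cells. Of 9 primary granule genes 2 were higher (Ctsg and Prss57) and none lower, median 0.59, but in the cells under 10,000 UMIs 5 genes could be read, 1 was higher and the median was -0.40. Cathepsin G (Ctsg) stood at 38.3 and 273 CPM, and at 3.62 and 19.8 CPM under 10,000 UMIs. Of 9 secondary granule genes none was higher and 1 lower, median -0.05: Chil3, a chitinase-like lectin, stood at 3378 and 1583 CPM (-1.09) and at 3549 and 1130 CPM under 10,000 UMIs (-1.65). Lcn2 (0.36) and Mmp8, the neutrophil collagenase (-0.05), did not reach 2-fold. Of 13 S100 and stefin genes, 3 of which the choice of cells limited, 4 were higher (these 3, Stfa1, Stfa2 and Stfa3, and Cstb) and none lower, median 0.53. The cathepsin inhibitor Cstb stood at 673 and 1387 CPM (1.04), S100a8 at 11326 and 16314 CPM (0.53) and S100a9 at 9489 and 14572 CPM (0.62). In all other barcodes S100a8 and S100a9 had log2 ratios of -0.04 and -0.33. Their background was higher in DAB, where after thinning S100a8 was found in 42.0% and S100a9 in 46.2% of B cell-like barcodes, against 27.2% and 32.0% in DMSO. In the cells the thinned shares were 72.3% and 80.0% for S100a8 and 63.6% and 76.4% for S100a9, and the part of the background in these levels was not tested.

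Of 19 growth factor and cytokine receptors, Csf3r and Il1r2 were lower and Il3ra, for IL-3, higher (11.4 to 24.8 CPM, 1.12), with a median of -0.23. Csf3r chose the cells, so its place among the lower ones is a description. Under 10,000 UMIs the count was 1 lower (Il1r2) and none higher of 18, median 0.08. Both chains of the receptor for GM-CSF, the growth factor in the medium, stayed short of 2-fold, Csf2rb at 605 and 676 CPM (0.16) and Csf2ra at 86.9 and 136 CPM (0.65). The macrophage growth factor receptor Csf1r stood at 197 and 139 CPM (-0.50) and after thinning was found in 25.2% and 22.0% of the cells under 10,000 UMIs, against 4.1% and 2.8% of B cell-like barcodes. Of 21 chemoattractant receptor and adhesion genes none was higher and 1 lower, median -0.33 (0.02 under 10,000 UMIs). Cxcr4, which holds neutrophils in marrow, stood at 99.7 and 39.5 CPM (-1.33, -1.59 to -1.08) and had UMIs in 218 DMSO and 163 DAB cells. Cxcr2 stood at 221 and 145 CPM (-0.61) but at 307 and 281 CPM under 10,000 UMIs (-0.13, -0.29 to 0.04). Under 10,000 UMIs 4 genes of this list were higher: Ptafr, Itgax, Cd9 and Icam1. Of 23 pattern, Fc and lectin receptors 2 were higher, Clec5a (70.1 to 170 CPM, 1.28) and Pilrb1 (1.56), and none lower, median 0.10. Cd14, the endotoxin co-receptor, joined them in the shallow cells (176 to 443 CPM, 1.33).

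The neutrophil chemokine genes Cxcl3 and Cxcl2 were higher in DAB, in the cells and in the background. Cxcl3 (chr5:90786103-90789600, plus strand) stood at 80.5 CPM in DMSO and 1091 CPM in DAB (3.76, 3.57 to 3.95), with UMIs in 50 and 313 cells. Cxcl2 (chr5:90903871-90905938, plus strand), another ligand of CXCR2, stood at 105 and 485 CPM (2.21, 2.04 to 2.39), with UMIs in 79 and 364 cells. In the cells under 10,000 UMIs Cxcl3 was as far apart, at 95.3 CPM in DMSO and 1309 CPM in DAB (3.78, 3.57 to 4.00). Cxcl2 was further apart there, at 130 and 850 CPM (2.71, 2.52 to 2.91). After thinning Cxcl2 was found in 7.7% of the shallow DMSO cells and 40.6% of the shallow DAB cells, with 2.0% and 11.8% in B cell-like barcodes. Cxcl3 was found in 4.23% and 31.7% of the shallow cells, with 2.04% and 12.7% in B cell-like barcodes. B cell-like barcodes held 46.8 and 784 CPM of Cxcl3 and 38.4 and 325 CPM of Cxcl2, so the background had a ratio of similar size, and the part it took in the cells' levels was not tested. The other barcodes had log2 ratios of 2.80 for Cxcl3 and 2.00 for Cxcl2. Of the 18 genes of the NF-kB inflammatory list, 3 were higher, these chemokines and the inhibitor Nfkbie (15.1 to 32.2 CPM, 1.09), and none lower, median 0.25 (0.65 under 10,000 UMIs, where Icam1 and Ccl6 were also higher). Tnfaip3, a target and brake of the same pathway, gave -0.85 in all the cells and 0.09 in the shallow ones. Of 10 genes of the IL-1 system none was higher and Il1r2 alone lower, median -0.22 (0.02 under 10,000 UMIs), and Il1b itself stood at 90.9 and 67.3 CPM (-0.43), but at 117 and 144 CPM under 10,000 UMIs (0.30).

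Of the functional lists, the amino acid response had the largest share of genes past 2-fold. Uncharged transfer RNA activates the kinase GCN2, and the transcription factor ATF4 that follows raises genes of amino acid synthesis, uptake and transfer RNA charging. Of 38 genes at 20 CPM, 24 were higher in DAB and none lower, median 1.30. In the cells under 10,000 UMIs, 28 genes could be read, 12 were higher, 1 lower and the median was 0.67. Asns, the asparagine synthetase (chr6:7675169-7693254, minus strand), stood at 22.5 CPM in DMSO and 139 CPM in DAB (2.62, 2.26 to 3.01), with UMIs in 46 and 213 cells (7.34% and 29.1%). The B cell-like barcodes, which were deeper, had it in 9.15% and 17.7%, and after thinning it was found in 2.60% and 10.2% of the cells and 1.36% and 1.42% of B cell-like barcodes. In the shallow cells it stood at 18.1 and 54.9 CPM, against 28.1 and 49.6 CPM in B cell-like barcodes, so its summed level there was near or below background. After thinning it was found in 3.27% (1.92 to 5.18%) and 6.00% (4.19 to 8.28%) of the shallow cells. The B cell-like intervals were 0.17 to 4.83% in DMSO and 0.29 to 4.08% in DAB, so the DAB share alone lay above background. Atf5 (chr7:44812256-44816658, minus strand), a transcription factor, stood at 22.1 and 179 CPM (3.01, 2.65 to 3.40), with UMIs in 52 and 332 cells (8.29% and 45.4%, against 6.54% and 16.8% of B cell-like barcodes). After thinning the shares were 2.60% and 21.6%, against 0% and 2.83%. Trib3, a pseudokinase induced by ATF4, stood at 10.1 and 87.7 CPM (3.12, 2.59 to 3.71). The serine pathway genes Phgdh (34.2 to 164 CPM, 2.26) and Psat1 (13.4 to 107 CPM, 2.99) and the mitochondrial folate genes Shmt2 (2.52) and Mthfd2 (1.95) were higher, as were the leucine carrier Slc7a5 (2.60) and the cystine carrier Slc7a11 (88.9 to 203 CPM, 1.19).

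These genes divided by depth. Atf5 was as far apart in the shallow cells (24.8 to 205 CPM, 3.05, 2.62 to 3.51), and Slc7a11 further (89.0 to 324 CPM, 1.87), whereas Phgdh stood at only 4.66 and 18.0 CPM there and Psat1 at 2.59 and 14.5 CPM. Most of the UMIs of these serine genes thus came from deep cells. Atf4 itself stood at 171 and 272 CPM (0.67) and the stress factor Ddit3 at 76.8 and 93 CPM (0.28), both short of 2-fold. Ddit4, an inhibitor of mTORC1, was lower, with 341 and 176 CPM (-0.95) and 352 and 173 CPM under 10,000 UMIs (-1.03). The list had a median of 1.20 in all other barcodes, so the ratios were not seen in these cells alone, and the plot of log2 ratios by gene shows both sets.

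**Figure D5:**
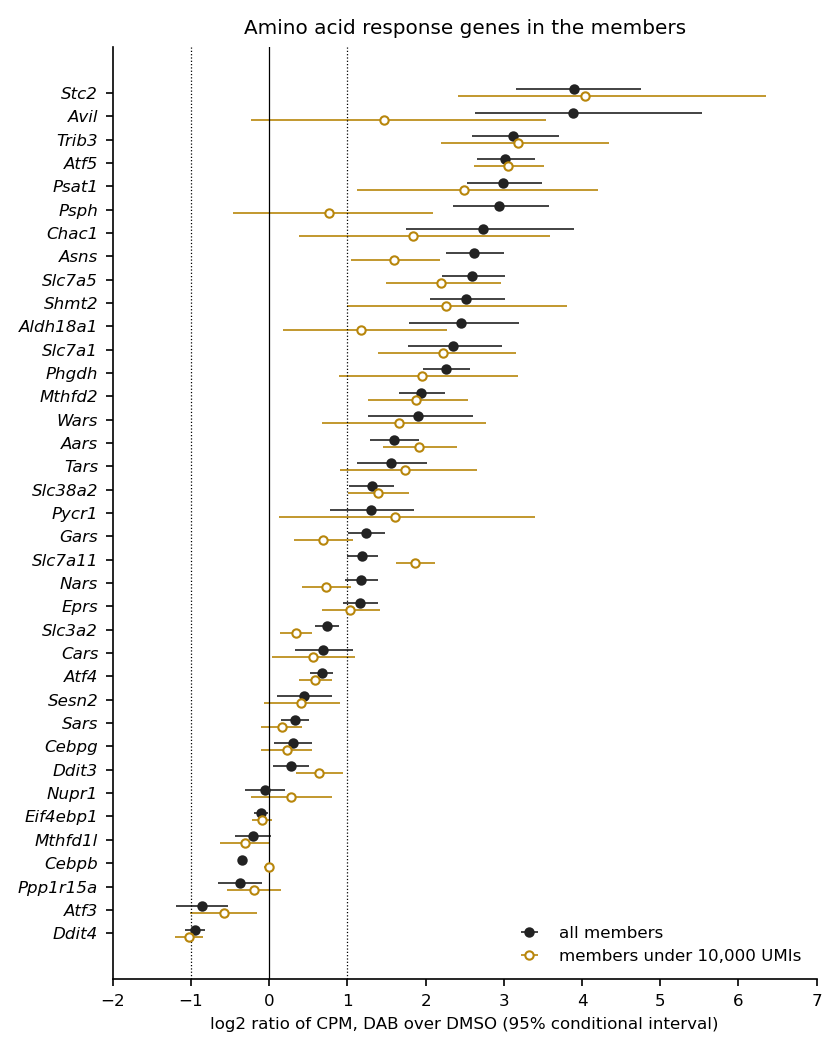
Log2 ratio of DAB to DMSO for amino acid response genes in all Csf3r-positive Ly6g-negative cells and in those under 10,000 UMIs, with exact conditional 95% intervals (Cth, with 1 DMSO UMI, is not drawn). Atf5, Trib3 and Asns lie above 1 in both, and Ddit4 lies near -1 in both.

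RefSeq promoters (GRCm38.p6, the assembly behind mm10, 250 bases before to 50 after each start) were searched for TGATGNAAT, 9 letters read on either strand, a form of the element that ATF4 and C/EBP proteins bind together. Of the 24 genes past 2-fold, 20 matched the promoter table with 23 promoters, and 3 promoters held the letters (13%), against 4 of the 35 promoters of all list genes tested (11.4%) and 317 of all 32851 promoters (0.965%). The 3 are shown because they are the ones among the genes past 2-fold that hold it, with the match in capitals, each read 5′ to 3′ along its gene's strand. A match is a description of letters and not a site. Pycr1, which makes proline, has it on its own strand 103 to 95 bases before the start (chr11:120643699-120643998, minus strand).
Pycr1: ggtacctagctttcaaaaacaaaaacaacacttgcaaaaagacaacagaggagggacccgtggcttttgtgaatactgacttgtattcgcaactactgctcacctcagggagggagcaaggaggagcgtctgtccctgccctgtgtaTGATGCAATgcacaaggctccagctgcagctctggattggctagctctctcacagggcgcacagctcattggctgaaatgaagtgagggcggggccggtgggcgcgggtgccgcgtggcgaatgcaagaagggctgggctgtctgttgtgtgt
Aars, the alanyl transfer RNA synthetase, has it on the opposite strand, 113 to 105 bases before the start (chr8:111033592-111033891, plus strand).
Aars: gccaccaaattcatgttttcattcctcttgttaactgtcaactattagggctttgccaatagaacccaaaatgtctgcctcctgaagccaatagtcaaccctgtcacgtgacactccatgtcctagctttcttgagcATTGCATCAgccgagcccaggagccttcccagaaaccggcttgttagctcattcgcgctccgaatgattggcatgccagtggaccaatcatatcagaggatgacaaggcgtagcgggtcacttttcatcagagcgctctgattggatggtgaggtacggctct
Gars, the glycyl transfer RNA synthetase, has it on the opposite strand, 31 to 23 bases before the start (chr6:55037751-55038050, plus strand).
Gars: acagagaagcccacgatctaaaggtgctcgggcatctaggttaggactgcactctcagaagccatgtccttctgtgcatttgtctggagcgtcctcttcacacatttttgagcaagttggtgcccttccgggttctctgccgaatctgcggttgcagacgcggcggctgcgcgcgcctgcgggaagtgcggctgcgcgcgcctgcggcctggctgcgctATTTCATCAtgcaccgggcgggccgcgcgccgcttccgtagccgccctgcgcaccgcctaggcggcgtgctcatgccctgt
Pycr1 stood at 12.4 CPM in DMSO and 30.5 CPM in DAB (1.30, 0.78 to 1.85), with UMIs in 18 and 73 cells. Aars stood at 33.6 and 101 CPM (1.59, 1.28 to 1.91) and in the shallow cells at 24.8 and 93.5 CPM (1.91). Gars stood at 60.7 and 143 CPM (1.24, 1.0 to 1.48) and in the shallow cells at 47.6 and 76.8 CPM (0.69).

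The unfolded protein response, a stress programme of the endoplasmic reticulum that overlaps the former, had 4 of 19 genes higher and none lower, median 0.44 (1 of 18 under 10,000 UMIs). They were Sdf2l1 (1.14), Hyou1 (35.9 to 74.2 CPM, 1.05), Manf (1.03) and Herpud1 (27.9 to 56.5 CPM, 1.02), and the main chaperone Hspa5 stood at 269 and 409 CPM (0.60). Of 18 NRF2 and redox genes 3 were higher and none lower, median 0.20: Slc7a11, Txnrd1, a thioredoxin reductase (51.7 to 107 CPM, 1.05), and Srxn1 (1.02). Ferritin heavy chain, Fth1, stood at 13206 and 23289 CPM (0.82, 0.80 to 0.83) and at 13605 and 36279 CPM under 10,000 UMIs (1.42, 1.39 to 1.44), with a log2 ratio of 0.11 in all other barcodes. The light chain Ftl1 gave -0.35.

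ERK output genes, the usual readout of the BRAF pathway, had none of 9 past 2-fold in either direction in all or in the shallow cells, with medians of 0.37 and 0.57. Dusp6, the ERK phosphatase among them, stood at 78.9 and 102 CPM (0.37, 0.15 to 0.59). Of 17 AP-1 and other immediate early genes 4 were lower and none higher, median -0.60 (2 lower and -0.34 under 10,000 UMIs). Fos stood at 83.2 and 17.2 CPM (-2.28, -2.63 to -1.93), with UMIs in 159 and 63 cells, and Zfp36, which destabilises cytokine messages, at 314 and 79.4 CPM (-1.98). B cell-like barcodes held 38.4 and 17.3 CPM of Fos and 236 and 155 CPM of Zfp36. Over all the cells, neither gene stood above that level in DAB. Junb (703 to 346 CPM, -1.02) and Dusp1 (51.3 to 25 CPM, -1.04) did not reach 2-fold in the shallow cells, at -0.66 and -0.61. Among 13 JAK-STAT genes Bcl6, a repressor, was lower (40.3 to 13.8 CPM, -1.54) and none higher, median -0.30 (-0.04 under 10,000 UMIs, with Bcl6 at -1.03). Among 10 interferon-stimulated genes Oasl2 (-1.26) and Slfn4 (-1.02) were lower and none higher, median 0.06, but under 10,000 UMIs none of 10 was past 2-fold and the median was 0.24.

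Mediators of suppression were lower or near level. Of 14 at 20 CPM, 5 were lower in DAB and none higher, median -0.58 (3 of 15 lower and -0.42 under 10,000 UMIs, and -0.62 in all other barcodes). Nos2, the inducible nitric oxide synthase (chr11:78920787-78960254, plus strand), stood at 106 CPM in DMSO and 12.9 CPM in DAB (-3.04, -3.43 to -2.67), with UMIs in 123 and 47 cells, and at 97.8 and 23.3 CPM under 10,000 UMIs (-2.07, -2.54 to -1.63). B cell-like barcodes held 41.2 and 2.23 CPM of Nos2, below the cells but also lower in DAB. The checkpoint ligand Cd274 (PD-L1) stood at 294 and 107 CPM (-1.46) and at 355 and 210 CPM under 10,000 UMIs (-0.76). Vegfa, the vascular growth factor, stood at 240 and 90.9 CPM (-1.40), and Wfdc17, a secreted inhibitor, at 51.0 and 20.7 CPM (-1.30). Wfdc17 was at the background, since B cell-like barcodes held 46.8 and 24.0 CPM of it, and 1 cell held 25% of its UMIs in DMSO and 35.0% in DAB. Of 8 lipid mediator genes Ltc4s, the leukotriene C4 synthase, was lower (85.2 to 26.4 CPM, -1.69) and none higher, median 0.13. None of 6 NADPH oxidase genes passed 2-fold, median 0.13, and its catalytic chain Cybb gave 222 and 128 CPM (-0.79).

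Survival genes of the BCL2 family parted in all the cells. Of 13, 3 were higher in DAB, Bcl2a1b (233 to 508 CPM, 1.12), Bcl2a1d (41.9 to 88.2 CPM, 1.07) and Bcl2 (10.7 to 38.5 CPM, 1.84), all of which oppose cell death. The Bcl2a1 genes are near-identical copies, so the split of UMIs between them is uncertain. Mcl1, the protein on which neutrophil survival rests, was lower (815 to 406 CPM, -1.0, but -0.59 under 10,000 UMIs), as was Pmaip1, which opposes it (39.9 to 12 CPM, -1.73, but -0.94 under 10,000 UMIs), and the median was 0.43. Under 10,000 UMIs 4 of the 13 were higher and none was past 2-fold lower, median 0.40. B cell-like barcodes held 46.8 and 70.8 CPM of Bcl2, above all the cells in both libraries. Of 23 myeloid transcription factors 3 were higher, Atf5, Myc (31.5 to 107 CPM, 1.76) and Cebpe, which drives the late granulocyte programme (39.3 to 86.3 CPM, 1.14), and 4 lower, Mxd1 (326 to 93.2 CPM, -1.81), Tcf7l2 (-1.22), Irf8 (-1.13, but 0.96, -0.41 to 2.48, under 10,000 UMIs) and Rb1 (-1.06), with a median of -0.10. Under 10,000 UMIs 2 of 21 were higher and 1 lower, Mxd1, and the median was 0.18. Mxd1 is the MYC antagonist of ripening neutrophils, and under 10,000 UMIs it stood at 429 and 174 CPM (-1.30) beside Myc at 36.8 and 60.6 CPM (0.72). Of 21 proliferation genes 6 were higher and none lower, median 0.66, but in the shallow cells 4 could be read, 1 was lower and the median was -0.45.

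Of 20 hypoxia response genes, 4 were lower in DAB and none higher, median -0.68 (3 lower and -0.36 under 10,000 UMIs, and -0.53 in all other barcodes), namely Vegfa, Selenbp1 (296 to 118 CPM, -1.33), the glycogen branching enzyme Gbe1 (368 to 148 CPM, -1.32) and Ankrd37 (306 to 129 CPM, -1.25). None of 19 glycolysis genes passed 2-fold in either direction, median -0.13, though 4 alone lay above 0, with Gapdh at 3812 and 2149 CPM (-0.83) and Ldha at 2183 and 2132 CPM (-0.03). Of 39 lysosome and proton pump genes 2 were higher, Gpnmb and Gusb (30.5 to 89.8 CPM, 1.56), and none lower, median -0.01 (0.30 under 10,000 UMIs, where the pump subunit Atp6v0d2 was also higher, 96.3 to 259 CPM, 1.43). Gpnmb, a glycoprotein of lysosomes, stood at 133 and 306 CPM (1.20) and at 73.5 and 569 CPM under 10,000 UMIs (2.95, 2.70 to 3.21), with UMIs in 49 and 142 cells and a log2 ratio of -0.03 in all other barcodes. Of 82 ribosomal protein genes none passed 2-fold, median -0.02 but -0.55 in the cells under 10,000 UMIs. Of 78 nuclear genes of oxidative phosphorylation 2 were higher and none lower, median 0.09, and of 13 mitochondrially encoded genes 5 were higher and none lower, median 0.61. Of these 5 mitochondrial genes, 4 stood at or below their level in the B cell-like barcodes of DAB. The median of the 13 in all other barcodes was 0.09.

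Among the genes furthest apart, many came from few cells. The higher ones in all the cells were Cth, which makes cysteine (1 and 325 UMIs, 7.42, 4.93 to 12.73), Grb10 (1 and 161 UMIs, 6.41, 3.91 to 11.72), P2rx3 (1 and 138 UMIs, 6.19, 3.69 to 11.50), Pgr (4.61), Tenm4 (no UMI in DMSO and 125 in 43 DAB cells), the secreted glycoprotein Stc2 (5.03 to 75.1 CPM, 3.90, 3.16 to 4.75), Avil (3.89), Cxcl3, Cdh17 (3.76), Spns3 (3.54), Myb (3.02 to 33.1 CPM, 3.46) and Cox6a2 (9.40 to 97.8 CPM, 3.38). Cth was found in 1 DMSO and 75 DAB cells, Stc2 in 12 and 117, and 1 cell held 35.7% of the Avil UMIs in DAB. Several were at or near background in DAB, where B cell-like barcodes held 48.5 CPM of Cdh17 against 22.7 CPM in the cells, 21.7 against 24.8 CPM of Avil and 77.5 against 97.8 CPM of Cox6a2. Avil under 10,000 UMIs gave 1.46 (-0.23 to 3.54), an interval that holds 0, and Cox6a2 stood at 1.04 and 12.3 CPM there. Like Avil and Cox6a2, the genes Cth, Grb10, P2rx3, Cdh17, Spns3 and Myb did not reach 20 CPM in the shallow cells and were not counted there. In DAB, Cth stood at 7.46 CPM in the shallow and 91.5 CPM in the deep cells. Pgr, the progesterone receptor, had 4 UMIs in DMSO and 185 UMIs in 35 cells in DAB, and its log2 ratio in all other barcodes was 0.42. The lower ones were Nos2, Apoe (31.5 to 4.43 CPM, -2.83), Prxl2b (-2.41), Ptx3 (-2.30, with 49.2% of its DMSO UMIs in 1 cell, and 1.04 and 0 CPM in the shallow cells), the short-chain fatty acid receptor Ffar2 (55.4 to 11.3 CPM, -2.29), Fos, Tnfrsf9, Arrdc3 (-2.07), Clec4a3 (-2.01), Zfp36, Hp (297 to 79.0 CPM, -1.91) and Rgs1 (-1.86). Tnfrsf9 (369 to 84.9 CPM, -2.12) stood at 96.3 and 104 CPM under 10,000 UMIs (0.11, -0.17 to 0.40). B cell-like barcodes held 340 and 79.2 CPM of Tnfrsf9, close to all the cells in both libraries. They also held 15.9 and 3.35 CPM of Ptx3 against 21.8 and 4.43 CPM in the cells. Of Apoe they held 59.9 and 311 CPM, above the cells in both, but all other barcodes held 7.59 and 5.55 CPM. Over all the cells, the levels of Tnfrsf9 and Ptx3 cannot be told from those of B cell-like barcodes. Whether the Apoe of B cell-like barcodes is background or their own RNA was not tested. In the deep cells Tnfrsf9 stood at 871 and 71.9 CPM (-3.60, -3.81 to -3.39) and Ptx3 at 60.1 and 7.43 CPM. In DMSO both of these deep levels lay above those of B cell-like barcodes. Hp stood at 357 and 101 CPM in the cells under 10,000 UMIs (-1.83), against 55.3 and 7.81 CPM in B cell-like barcodes.

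In the cells under 10,000 UMIs, the genes furthest above in DAB that were not in the former list were Samd12 (0.518 to 34.2 CPM, 6.05, 3.53 to 11.37), Immp2l (1.55 to 24.1 CPM, 3.96, 2.34 to 6.28), Igfbp6 (7.77 to 88.3 CPM, 3.51), Slc24a3 (3.18), Trib3, Bcl2 (3.11 to 27.2 CPM, 3.13), Spp1 and P2ry6 (3.06). Samd12 had UMIs in only 5 DMSO and 16 DAB cells of any depth. B cell-like barcodes held 100 and 150 CPM of Immp2l, above the shallow cells in both libraries. For Trib3 in DAB they held 37.4 CPM, against 42.2 CPM in the shallow cells. Spp1, for the secreted phosphoprotein osteopontin (chr5:104435118-104441050, plus strand), stood at 166 CPM in DMSO and 1398 CPM in DAB there (3.08, 2.91 to 3.25), and at 416 and 1502 CPM in all the cells (1.85), against 2446 and 3239 CPM in all other barcodes (0.40). After thinning it was found in 12.1% of the shallow DMSO cells and 42.9% of the shallow DAB cells. Its background in B cell-like barcodes was 11.6% and 20.8%, and 239.8 and 1229 CPM, so the DMSO share is read as background and the DAB share lies above it. The genes furthest below in the shallow cells, beyond those named, were Gal, for the neuropeptide galanin (79.7 to 5.71 CPM, -3.80), Clec4a1 (-3.01), Wfdc17 (61.6 to 11 CPM, -2.49), Selenbp1 (279 to 69.8 CPM, -2.0), Dennd2a (-1.99), transferrin, Trf (549 to 144 CPM, -1.93), and C1qtnf12 (-1.84).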

How the data were processed

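Single-cell 5′ gene expression libraries of 1 DMSO and 1 DAB culture were read from the deposited matrices of raw UMI counts per gene and barcode. Per the submitters' processing notes, the authors used Cell Ranger 7.0.0 with mm10, Seurat 4.3.0 and R 4.1.2. Barcodes with at least 1000 UMIs and at most 10% mitochondrial UMIs were kept. The counts of the chosen cells were summed per library and divided by their total (CPM). Log2 ratios carry exact conditional 95% intervals, levels exact Poisson and shares exact Clopper-Pearson intervals, all for counting error only. Genes below 20 CPM in both libraries were left out. With 1 library per condition no model was fitted and no p-value computed. The doublet score was the share of simulated doublets (2 for each barcode) among 50 neighbours, from 30 components of 2000 variable genes, with 0.8% doublets assumed per 1000 barcodes. B cell-like barcodes held at least 3 UMIs of B cell markers. Thinning drew 1500 UMIs per cell.

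The cells and gene lists were chosen with earlier results of these data known. The hypoxia and lysosome lists, the division at 10,000 UMIs and a scaling without 7 abundant transcripts were chosen after the data were seen. Named genes were the 5 markers and genes of the criteria, the 12 furthest genes in each direction whose sign held across Csf3r strata and without barcodes marked as doublets (Gm, Rik, mt-, ribosomal and immunoglobulin genes left out), list genes past 2-fold with up to 4 others by level, the 8 furthest genes against each class at 50 CPM or more and the 10 most overdispersed genes of each library. Names outside this, such as Tnfaip3 and Ifitm1, and the furthest genes under 10,000 UMIs were picked after their values were seen. Computations used Python 3.11.15, numpy 2.4.6, scipy 1.17.1, pandas 2.3.3, scikit-learn 1.9.0 and matplotlib 3.10.9, and were tested on simulated data. Some genes counted in the lists are not reported here by name.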

Additional observations from a re-analysis of the deposited data

How the results depend on the processing

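No paired analysis was possible because each condition was 1 library, and for the same reason no replicate could be left out. The DMSO and DAB shares were 5.56% and 5.87% with at least 2000 UMIs, 4.15% and 2.94% with at least 2 Csf3r UMIs, 5.23% and 4.19% with the criteria read after thinning, and 10.4% and 10.8% of barcodes under 10,000 UMIs with the cells under it. The 377 genes higher in DAB became 576 with 2 Csf3r UMIs, 599 without cells rich in monocyte and dendritic markers, 821 at 5 CPM and 74 at 100 CPM. The 190 lower genes became 364 at 5 CPM, 60 at 100 CPM and 102 under 10,000 UMIs. Without the barcodes marked as doublets 362 of the higher and 178 of the lower genes were kept. Under 10,000 UMIs the medians of primary granule (-0.40), proliferation (-0.45), chemoattractant (0.02), growth factor receptor (0.08), IL-1 (0.02), myeloid factor (0.18) and lysosome genes (0.30) changed sign. The median of interferon genes became -0.48 without cells rich in monocyte and dendritic markers and that of ERK output genes -0.46 at 100 CPM, each from above 0. Among medians that moved and kept their sign were those of mature neutrophil genes, at 0.42 (thinned criteria), 0.44 (mean over cells) and 0.45 (under 10,000 UMIs); of NF-kB genes, at 0.61, 0.61, 0.65 and, at 100 CPM, 0.53; of hypoxia genes, at -0.42, -0.48 and -0.36; of amino acid genes, at 1.67 without monocyte-rich cells and 0.67 under 10,000 UMIs; and of S100 and stefin genes, at 0.64 without monocyte-rich cells and 0.64 as the mean over cells. Against Ly6g-positive cells, genes higher numbered 57 with 2 Csf3r UMIs, 0 at 100 CPM (13 lower) and 99 under 10,000 UMIs (59 lower). Against secondary granule cells they numbered 424 without the marked barcodes, 616 at 5 CPM (128 lower), 39 at 100 CPM (32 lower) and 1035 under 10,000 UMIs (140 lower), and against chemokine cells 334 at 5 CPM (160 lower), 21 at 100 CPM (44 lower) and 77 under 10,000 UMIs. Under 10,000 UMIs Tnfrsf9 changed sign, to 0.11, as did other genes named above such as Fpr1 (0.47), Il1b (0.30), Irf8 (0.96) and Tnfaip3 (0.09). The CPM limits alter how many genes are read, and the cause of the other shifts was not tested. The median of all genes was 0.01, 0.00 and 0.01 under total, median-of-ratios and reduced-total scaling. Among the remaining values of single genes and lists, 527 stayed within their interval or spread, 184 moved and 1, Tnfrsf9 under 10,000 UMIs, was labelled reversed. This label is not a count of sign changes: the others named above, and that of Mgl2 under 10,000 UMIs, were not labelled so. The interval of Tnfrsf9 there (-0.17 to 0.40) holds 0. Depth limits the DMSO side most, where the cells held 2.98e+06 UMIs in all, against 5.64e+06 in DAB.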
